A study of Mus musculus with 24 samples.

Results

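Fibroblast growth factor (FGF) ligands and their receptors were examined in cultured mouse periosteal cells, the cells that line the outer surface of bone. The 9 genes, 5 ligands (Fgf1, Fgf2, Fgf7, Fgf10 and Fgf18) and 4 receptors (Fgfr1, Fgfr2, Fgfr3 and Fgfrl1), were chosen by symbol from a table of 35975 genes, and all 9 were found in it. The 22 sites of changed chromatin accessibility that lay nearest to them were taken from 30496 such sites. The study asked how YAP, a transcriptional co-activator held back by the Hippo kinases, changes the transcripts and open chromatin of these cells.

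The 24 samples form 8 groups of 3: RNA-seq or ATAC-seq, an assay of open chromatin, on cells of 2 genotypes with or without doxycycline (Dox) at 1 µM. The transgenic cells, called YAPCA here, carried the Cre allele B6.C-tg(CMV-Cre)1Cgn/J, the Dox-responsive transgene tetO-YAPS127A and the allele Gt(ROSA)26Sortm1(rtTA,EGFP)Nagy/J. The S127A substitution takes away a site through which the Hippo kinases restrain YAP. The untreated YAPCA cells carried all of these alleles, and the wild-type cells were labelled C57BL6, with no Cre or rtTA named. The CMV promoter that drives Cre is active in most tissues, so the transgene is not limited to a cell type. Dox was dissolved in water, and the controls are labelled untreated. Cells were grown in 15% serum and treated in 10% serum, and the sources used here give neither the length of treatment nor the age of the mice. Samples within a group are labelled as technical replicates, with no separate culture or animal named, so each p-value reflects spread among samples that may be technical alone.

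FGFs are secreted proteins that bind receptor tyrosine kinases together with heparan sulfate chains on the cell surface. The bound receptor phosphorylates the adaptor FRS2 and phospholipase C gamma and drives the RAS-MAPK cascade, which induces feedback inhibitors of the Sprouty family. In the skeleton FGFR1 and FGFR2 act in osteoprogenitors and osteoblasts and FGFR3 mainly in chondrocytes, and FGF2 and FGF18 are known regulators of bone and cartilage growth. FGF7 and FGF10 are made by mesenchymal cells and signal mostly to epithelia through a splice form of FGFR2. The gene-level reads used here do not separate splice forms.

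The YAPCA RNA libraries held between 16351891 and 28734643 reads counted over genes. Each value is a normalised read count, in which the authors divided the reads of a library by 1 factor. Yap1 was at 5041 ± 94.7 without Dox and 4798 ± 86.3 with Dox (SD, n = 3), and the sources used here do not state whether transgene reads count under Yap1. The YAP target Ccn2, listed as Ctgf, had a log2 change of 0.79 ± 0.062 (SE). Of 9 markers of periosteal and mesenchymal cells all 9 were detected above a mean of 10 normalised read counts. With Dox 4 of them, Prrx1, Postn, Pdgfra and Col1a1, fell (limma), where 27.9% of all tested genes passed in either direction. The other 5 did not pass. Among these, Ctsk, Thy1, Cd200 and Ly6a overlapped between the groups, while Nt5e was higher with Dox without overlap (41.6 to 53.6). The summed level of the 9, mostly Col1a1, ran from 340700 to 363100 without Dox and from 260100 to 264900 with Dox. Its part in the results on FGF genes was not tested. Of 5 osteoblast markers, Sp7 fell from 327 to 162 normalised read counts (limma, adjusted p = 1.55e-07), Runx2, at 1183 and 1131, did not pass, and Bglap, Ibsp and Dmp1 were at 0 or at most 1.996. All 3 chondrocyte markers were tested, and Col2a1 (2979 to 2625) and Sox9 (437 to 292) fell. The third, Acan, was low and higher with Dox without overlap (19.6 to 30.9) but did not pass (limma, adjusted p = 0.0822). Of 5 macrophage and leukocyte markers 3, Csf1r, Cd68 and Lyz2, were tested and 0 passed (limma), with a summed level of 278.7 to 348.7 without Dox and 327.2 to 329.3 with Dox, and Ptprc was at no more than 1.6. Of 4 endothelial markers 3, Cdh5, Kdr and Tek, were tested and 0 passed (limma), with a summed level of 60.5 to 85.2 and 78.8 to 118.1. None of the 4 epithelial markers reached the mean of 10, and the part of these cell types in the results was not tested. In such bulk samples fewer cells of a type and less RNA per cell cannot be told apart.

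Both FGF genes that passed the test encode receptors. Fgfr1, the main receptor of mesenchymal cells, fell with Dox, and Fgfr2, whose mutations cause craniosynostosis syndromes, rose. Of the 9 genes, 2 passed, 1 in each direction, and 7 did not (limma on log2(normalised read count + 1), Benjamini-Hochberg adjusted p below 0.05 over 13477 genes with a mean of at least 10). Over all tested genes 27.9% passed, so the share of FGF genes that passed, 22.2%, lay near the background. Without overlap between the groups were 3 of the 9, Fgfr1, Fgfr2 and Fgf10, against 41% of all tested genes. The median log2 change of the 9 genes was -0.03, against 0.001 over all tested genes.

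Fgfr1 stood at 8247, 8438 and 8393 normalised read counts in the untreated libraries and at 7317, 7365 and 7253 with Dox. Every Dox library lay below every untreated library, and the libraries of a group lay close together. The means fell by 12.5%, from 8359 ± 99.6 to 7312 ± 56.1 (SD, n = 3), a log2 change of -0.19 ± 0.025 (SE; limma, adjusted p = 2.25e-05). Among all genes that passed, 62.4% changed by at least as much, so this was a small change measured with little spread. It was called in each of the 14 alternative analyses, with log2 changes between -0.203 and -0.186.

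Fgfr2 stood at 857, 789 and 811 normalised read counts without Dox and at 887, 1002 and 923 with Dox. The groups did not overlap, but the highest untreated library lay close to the lowest Dox library. The means were 819 ± 34.6 and 937 ± 58.7 (SD, n = 3), 14.5% higher with Dox, a log2 change of 0.19 ± 0.053 (SE; limma, adjusted p = 0.0113). The call, but not the direction, depended on the replicate 2 libraries. Without untreated replicate 2 the log2 change was 0.168 (limma, adjusted p = 0.0529). Without Dox replicate 2 it was 0.145 (limma, adjusted p = 0.0744). Leaving out these libraries also lowered the number of all genes that rose, from 1931 to 1608 and 1512. Over the 14 alternatives the adjusted p of Fgfr2 ran from 0.00655 to 0.0744.

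Since both genes were read in the same libraries, the reads of Fgfr2 were also expressed as a percentage of those of Fgfr1, a quantity chosen after the changes had been seen. It was 10.4%, 9.35% and 9.66% without Dox and 12.1%, 13.6% and 12.7% with Dox. All 3 Dox libraries lay above all 3 untreated ones. The difference on the log2 scale was 0.39. It restates the changes of both genes, which had already fixed that the groups do not overlap, so it was not tested. The percentage depends on the lengths of the transcripts, so its change can be read but not its level.

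Fgfr3 and Fgfrl1 did not pass. Fgfr3, the receptor best known from growth plate cartilage and mutated in achondroplasia, was low, with normalised read counts of 67.2, 79.6 and 81.6 in untreated and 75.2, 78.8 and 74.2 in Dox-treated libraries. The Dox values lay inside the range of the untreated ones, and the log2 change of 0.00 had a 95% interval of -0.295 to 0.302, which leaves room for a change as large as that of Fgfr1 or Fgfr2. Fgfrl1, a receptor without a tyrosine kinase domain, was at 857, 862 and 882 without Dox and 808, 822 and 864 with Dox. These groups overlapped in 1 library, and the log2 change was -0.06 (95% interval -0.158 to 0.036; limma, adjusted p = 0.357).

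**Figure D1:**
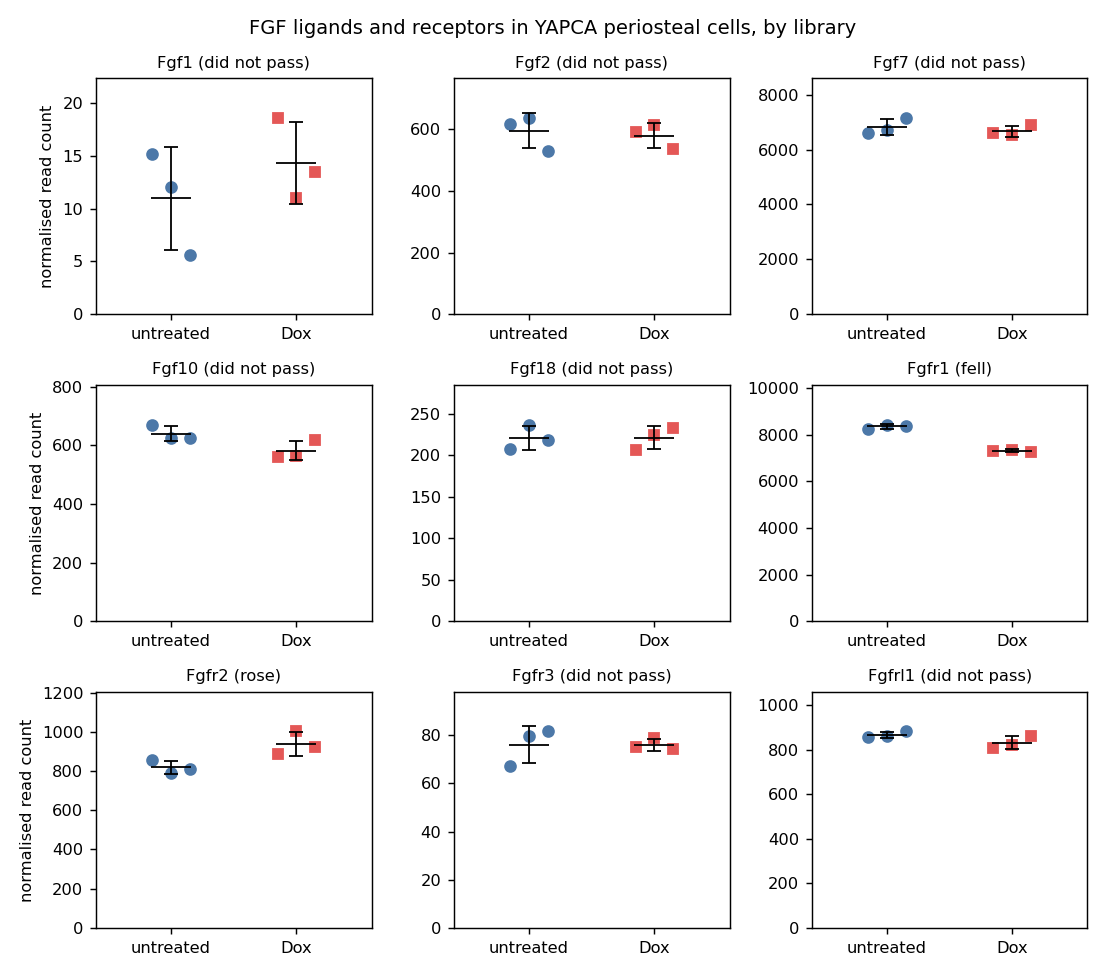
Normalised read counts (y axis, linear from 0, scaled per gene) of the 9 FGF genes in the 3 untreated (blue circles) and 3 Dox-treated (red squares) YAPCA libraries, with mean and SD in black. The groups separate for Fgfr1 (8247 to 8438 against 7253 to 7365), Fgfr2 (789 to 857 against 887 to 1002) and Fgf10 (623 to 671 against 562 to 618).

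None of the 5 ligands passed (limma; 1, Fgf10, at an unadjusted p below 0.05; edgeR and DESeq2 also called 0). Fgf7, a ligand of epithelial cells that was the most deeply counted of the 5, had normalised read counts of 6607, 6708 and 7158 in untreated and 6585, 6523 and 6903 in Dox-treated libraries. These groups overlapped. The log2 change was -0.03 with a 95% interval of -0.102 to 0.037, so a change as large as that of Fgfr1 lies outside the interval.

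Fgf10, needed for limb bud and lung outgrowth, was at 671, 627 and 623 without Dox and at 562, 565 and 618 with Dox. Every Dox library lay below every untreated library, by a narrow margin for Dox replicate 3. The log2 change of -0.14 ± 0.057 (SE) did not pass (limma, adjusted p = 0.0826), while without Dox replicate 3 it was -0.184 (adjusted p = 0.028). Its adjusted p over the 14 alternatives ran from 0.028 to 0.273.

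Fgf2, a ligand stored in bone matrix, had normalised read counts of 617, 638 and 531 in untreated and 591, 613 and 536 in Dox-treated libraries. In both groups replicate 3 was the low library, and the groups overlapped. The log2 change was -0.04 (95% interval -0.186 to 0.116). Fgf2 overlaps Nudt6 and Fgf2os in the reference annotation, and the sources used here do not state whether reads were counted by strand, so reads in the shared stretch cannot be assigned with certainty. Nudt6, at 917 ± 61.3 without Dox and 866 ± 44.9 with Dox, and Fgf2os, at 47.7 ± 10.6 and 41.7 ± 12.7 (SD, n = 3), did not pass either.

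Fgf18, which limits chondrocyte proliferation through FGFR3, had normalised read counts of 208, 237 and 218 in untreated and 206, 225 and 233 in Dox-treated libraries. The means were 221 in both groups, and the 95% interval of the log2 change was -0.188 to 0.19. Fgf1, an FGF that binds all FGF receptors, was close to the limit of detection, with 19, 13 and 4 reads in the untreated libraries and 22, 11 and 12 reads with Dox. Its log2 change of 0.43 had a 95% interval of -0.366 to 1.22. This leaves room for a fall larger than that of Fgfr1 or a rise larger than that of Fgfr2. The value depended on single libraries: it was 0.05 without untreated replicate 3, 0.694 without untreated replicate 1 and 0.236 without Dox replicate 1.

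**Figure D2:**
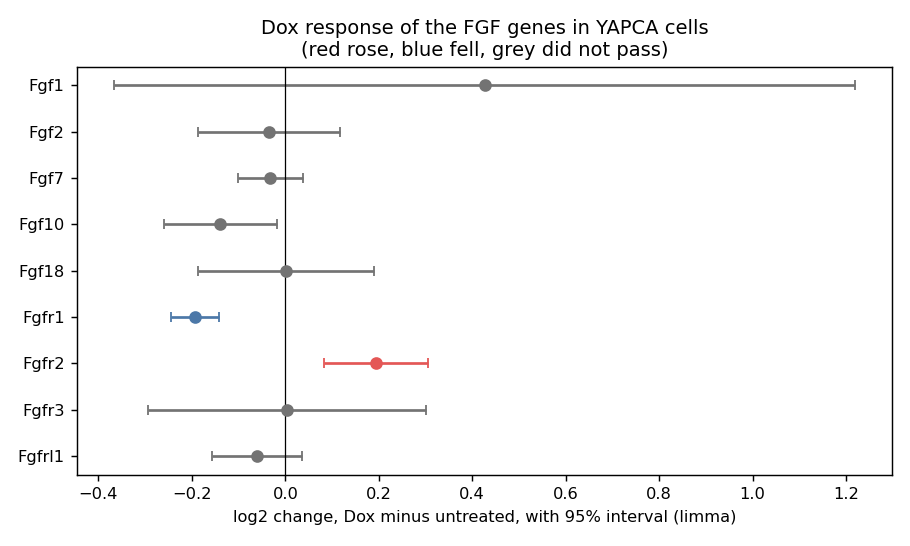
Log2 change (x axis, Dox minus untreated) of each FGF gene in YAPCA cells with its 95% interval from limma. The intervals of Fgfr1 and Fgfr2 lie on opposite sides of 0, at -0.245 to -0.141 and 0.083 to 0.306, and that of Fgf1, with the fewest reads, is the widest.

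In YAPCA chromatin, sites of changed accessibility lay near all 5 ligand genes and near Fgfr1 and Fgfr2, and no site was nearest to Fgfr3 or Fgfrl1. Accessibility is given per site as a log2 concentration, the log2 of the mean normalised reads of a group, in the authors' deposited table (DiffBind, false discovery rate (FDR) below 0.05, mm10). The columns are headed experiment and control, read here as Dox and untreated, since the labels call untreated cells the controls. The direction of every site follows the main sheet, where the fold is experiment minus control for all 30509 sites within 0.011. A second sheet, for chromosome 3, carries the same folds with these headings exchanged for all 1932 sites shared, and the folds alone do not settle which sheet is right. With the headings turned, the 20 gained sites described next would be lost and the 2 lost ones gained. A site was assigned to the gene whose body was nearest, or to every gene it lay in. Fgfr3 and Fgfrl1 have the shortest bodies of the 9 genes, 15.3 and 12.7 kb, against 30.4 to 104.4 kb for the others. The part of gene length in the numbers of sites was not tested. The depth of the ATAC-seq libraries and the values of single samples are unknown. Of the 22 sites 20 were gained and 2 lost with Dox, where 87.2% of all 30496 sites in the authors' deposited table were gained. Of 12800 tested genes with a reference position, 6397 had at least 1 site by the same rule, and 44.8% had a gained one, so sites near 7 of 9 genes are a description only. The median log2 fold of the 20 gained sites was 0.52, against 0.56 for all gained sites. The sequences of the sites were not analysed here, and whether a site lies in an exon or an intron was not looked up.

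Fgfr1, on chromosome 8:25518759-25575718, was the FGF gene to which the lost sites were assigned. Both lay inside the gene in the authors' deposited table, at chromosome 8:25536463-25537118, from 9.12 to 8.86 (log2 fold -0.25, FDR = 0.0282), and at 8:25557632-25557828, from 5.96 to 5.26 (log2 fold -0.70, FDR = 0.027). The first of them also lies in the predicted gene Gm31288. The other 2 sites lay outside the gene, at 8:25505861-25506174 and 8:25507749-25507996, and were gained at log2 folds of 0.71 and 0.67 in the authors' deposited table. Within 50 kb, 2 more sites lay nearer to other genes in the authors' deposited table: one at 8:25585069-25585414, in or near Letm2, was lost (log2 fold -0.41, FDR = 0.0255), and one at 8:25620079-25620307, in or near Nsd3, was gained (log2 fold 0.72, FDR = 6.78e-05). The sites inside Fgfr1 were thus lost and the pair outside it gained, and neither lost site was kept at an FDR below 0.01. By the same rule 23.8% of all genes that fell had a lost site, against 14.1% of all tested genes, given as a description.

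Fgfr2, on chromosome 7:130162451-130266808, had the largest gain of the FGF genes. In the authors' deposited table the site at 7:130177110-130177365, inside the gene and 89.6 kb downstream of its start, went from a log2 concentration of 4.44 to 6.35, a log2 fold of 1.90 (FDR = 1.36e-11). Only 0.417% of all gained sites had as large a fold. A second site at 7:130177505-130177621, less than 1 kb away, went from 3.60 to 4.98 (log2 fold 1.38, FDR = 0.00527) in the authors' deposited table. These 2 sites were the least accessible of the 22 before Dox, so their large folds start from low levels. The last site, outside the gene at 7:130143379-130144128, was gained at 0.50. Of all genes that rose, 64.2% had a gained site assigned, against 41.0% of genes that did not pass and 44.6% of genes that fell, given as a description.

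The ligand genes had gained sites without a called change of their RNA. Fgf2, on chromosome 3:37348477-37410106, had 4 sites, all inside the gene, and in the authors' deposited table their log2 folds ran from 0.19 to 1.16. The largest was at 3:37381702-37381925, from 5.74 to 6.90 (FDR = 3.02e-08). The 4 sites are among those whose group headings differ between the authors' sheets. Within 50 kb of Fgf2, 5 more sites lay nearer to other genes, and all 5 were gained. The closest, at 3:37346649-37346940, 1.5 kb away and assigned to Fgf2os, had a log2 fold of 0.65 (FDR = 6.26e-07) in the authors' deposited table.

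Fgf7, on chromosome 2:126034658-126091185, had 3 gained sites inside the gene, which also lie in the overlapping gene Fam227b, with log2 folds of 0.75, 0.47 and 0.58 in the authors' deposited table. Fam227b itself was nearly silent, with means of 1.4 (untreated) and 0.614 (Dox) normalised read counts. Within 50 kb of Fgf7, 3 more sites were assigned to Fam227b in the authors' deposited table. The one at 2:125984493-125984803, 49.9 kb away, went from 4.28 to 6.78 (log2 fold 2.50, FDR = 1.36e-19), while one at 2:125993730-125994029, 40.6 kb away, was lost (log2 fold -0.48, FDR = 0.0352) and one at 2:126031519-126031883, 2.8 kb away, was gained (log2 fold 0.36, FDR = 0.00233). Fgf10, on chromosome 13:118714699-118792573, had 4 gained sites with log2 folds of 0.40 to 0.82, 2 inside and 2 beyond its end.

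Fgf18, on chromosome 11:33116970-33147400, had 3 gained sites in the authors' deposited table. The one at 11:33142872-33143158 lay inside the gene, 4.4 kb downstream of the start, and went from 6.07 to 7.14 (log2 fold 1.07, FDR = 4.83e-08). Another, at 11:33147957-33148827, lay just upstream of the start and was highly accessible already without Dox, at 10.33 against 10.54 with Dox (log2 fold 0.21). It was the site closest to a start among those of the genes whose start is in the promoter table. Fgf1, on chromosome 18:38838672-38929470, had 1 weakly gained site, shared with the overlapping gene Arhgap26, at a log2 fold of 0.31 (FDR = 0.0343). Within 50 kb, 4 more sites around Fgf1 and 1 around Fgf18 lay nearer to other genes and were gained.

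**Figure D3:**
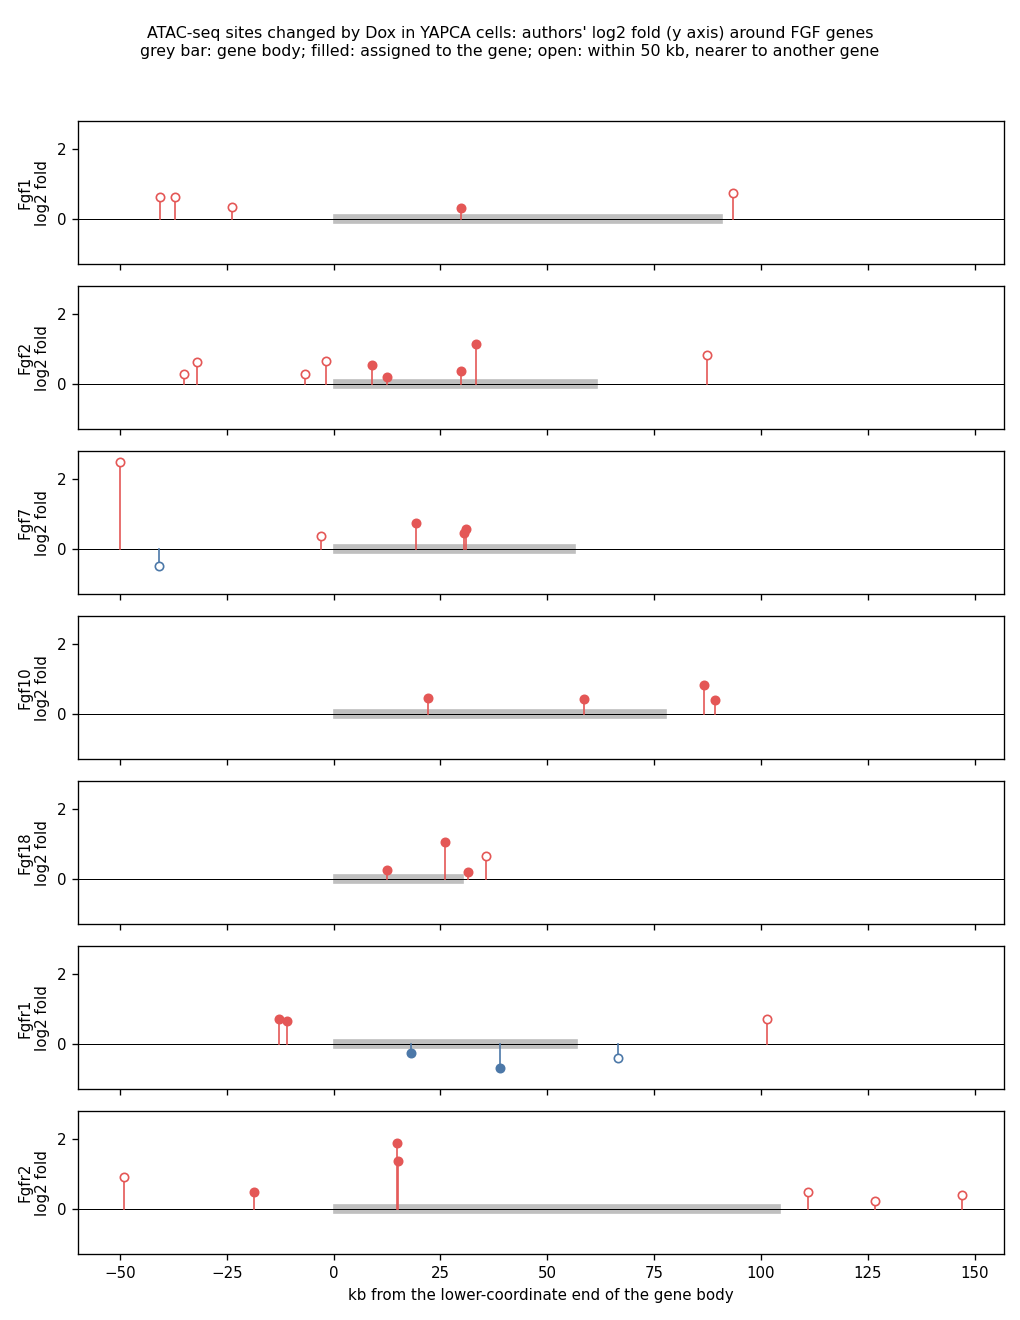
Log2 fold (y axis, authors' values, Dox minus untreated) of the changed ATAC-seq sites along the 7 FGF genes that had any, against distance in kb from the lower-coordinate end of the gene body (grey bar). Filled points are assigned to the gene and open points lie within 50 kb but nearer to another gene; the blue points inside Fgfr1 (-0.25 and -0.70) are the lost sites, and the tall pair in Fgfr2 reaches 1.90 and 1.38.

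No changed site overlapped the promoter window, from 250 bases before to 50 after the start, of the 7 FGF genes whose promoters are in the RefSeq table (GRCm38.p6), with 8 windows in all. The window of Fgf18 lay nearest to one, 307 bp away, and that of Fgfr2 6197 bp away. The 250 bases before the start of both are shown, 5′ to 3′ on the gene's strand, because Fgf18 has the site nearest its start and Fgfr2 is the gene that rose. Capitals mark CG dinucleotides.
Fgf18, minus strand of chr11:33147401-33147650: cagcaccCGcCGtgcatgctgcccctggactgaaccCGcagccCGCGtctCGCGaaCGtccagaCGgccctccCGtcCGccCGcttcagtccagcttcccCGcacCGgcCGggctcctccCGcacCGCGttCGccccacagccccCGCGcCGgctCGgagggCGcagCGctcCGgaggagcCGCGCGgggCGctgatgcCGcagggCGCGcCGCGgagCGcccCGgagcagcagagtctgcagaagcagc
Fgfr2, minus strand of chr7:130266809-130267058: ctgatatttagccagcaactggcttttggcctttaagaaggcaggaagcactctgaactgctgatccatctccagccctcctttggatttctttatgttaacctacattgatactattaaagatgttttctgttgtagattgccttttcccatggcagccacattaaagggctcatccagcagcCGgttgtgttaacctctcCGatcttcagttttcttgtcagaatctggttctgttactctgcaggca
The Fgf18 stretch holds 37 CG dinucleotides, a number that 2.2% of all 32851 promoter windows reach in these 250 bases, and the Fgfr2 stretch holds 2, against a median of 6. The letters of the TEAD core motif GGAATG, through which YAP is brought to DNA, and of the AP-1 motif TGANTCA were searched on both strands, and neither was found in any of the 8 windows. Of all windows 14.7% hold GGAATG and 7.81% hold TGANTCA.

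In wild-type cells given Dox, none of the 9 genes was among the 98 genes in the authors' deposited table. The lowest mean in that list was 1970 normalised read counts, and in YAPCA cells 2 of the FGF genes, Fgf7 and Fgfr1, were above that. Of the 42 wild-type ATAC-seq sites 0 were assigned to an FGF gene, the nearest lying 91.7 kb from Fgfr3. The values of the FGF genes in wild-type RNA were not analysed here, so the difference between the genotypes was not tested.

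The remaining FGF ligands were scarce in YAPCA cells. Of 17, 14 had a mean below 10 normalised read counts, among them Fgf4, Fgf6, Fgf12, Fgf15, Fgf16 and Fgf20 at 0 in every library. The other 3, Fgf11, Fgf13 and Fgf14, which act inside cells, did not pass. Fgfr4 (2.4 to 9.98 normalised read counts over the libraries) and the co-receptor genes Kl and Klb of the endocrine FGFs (at most 1.12) were too low to be tested.

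Of 4 tested genes that bind or present FGF receptors and ligands, 1 rose and 1 fell, where 27.9% of all tested genes passed. Flrt2, a membrane protein of the FLRT family, members of which bind FGF receptors, was at 1225, 1248 and 1206 without Dox and 1876, 1747 and 1720 with Dox, a log2 change of 0.54 ± 0.040 (SE; limma, adjusted p = 6.64e-08). Its relative Flrt1 was at 142, 136 and 130 and at 94.6, 86.8 and 86.6, a log2 change of -0.60 ± 0.12 (limma, adjusted p = 0.000972). The groups of both genes lay well apart, in opposite directions.

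Of 21 genes of the adaptors and MAPK core 8 rose, 3 fell and 10 did not pass, with a median log2 change of 0.04 (limma). The share that passed was 52.4%, against 27.9% of all tested genes, which were not matched for read depth. The falls were the adaptor gene Shc1 at -0.22 ± 0.029 (SE; limma, adjusted p = 3.67e-05), Plcg1, the phospholipase C gamma bound by FGF receptors, at -0.15 and Mapk3, the kinase ERK1, at -0.12. The rises included Cbl, a ubiquitin ligase that downregulates receptors, at 0.18 ± 0.036 (adjusted p = 0.00105) and Ptpn11, the phosphatase SHP2, at 0.13 ± 0.027 (0.00132). Among the genes of this list that passed, Shc1 had the largest change. Of the 11 calls 7 held in each of the 14 alternatives. The rise of Frs2, the adaptor of FGF receptors, at 0.09, was lost in 10 of them, DESeq2, edgeR and TMM scaling included, that of Crkl in 5 and that of Braf without Dox replicate 1. The call of Mapk3 was lost when untreated replicate 2, untreated replicate 3, Dox replicate 1 or Dox replicate 2 was left out.

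Of 25 tested genes of heparan sulfate carriers and enzymes 5 rose, 7 fell and 13 did not pass, with a median log2 change of -0.05 (limma). Thus 48% passed, against 27.9% of all tested genes, again without matching for read depth. Sdc1, the core protein of syndecan-1, was at 9356, 9290 and 9414 without Dox and 6727, 6649 and 6915 with Dox, a log2 change of -0.47 ± 0.026 (SE; limma, adjusted p = 2.11e-09). The syndecan gene Sdc3 and the glypican gene Gpc1 had log2 changes of -0.18 ± 0.028 and -0.24 ± 0.027, while the glypican gene Gpc4 rose by 0.26 ± 0.031 (limma, adjusted p = 0.000127, 4.09e-06 and 1.05e-05). Members of both core protein families thus moved in both directions, since Sdc4 rose as well, at 0.15. The sulfotransferase genes also moved in both directions: Hs2st1, Hs6st2 and Ndst1 rose at 0.18, 0.23 and 0.09, and Ndst2 and Hs6st1 fell, at -0.19 and -0.13. The calls of Ndst1 and Hs6st1 were each lost in 5 of the 14 alternatives. Hspg2, which encodes perlecan, was the gene of these lists that the authors' deposited table names in wild-type cells, with a log2 fold of -0.18. In YAPCA cells its log2 change was -0.11 and did not pass (limma, adjusted p = 0.0691). The interval of -0.202 to -0.019 included the wild-type value of -0.18. The groups did not overlap, by a narrow margin for Dox replicate 1 (28380 against 28410 normalised read counts). Hspg2 stayed uncalled in 10 of the 14 alternatives. It was called with no filter, with the replicate block, without Dox replicate 1 and without Dox replicate 3. The difference between the genotypes was not tested.

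Of 13 feedback and target genes of FGF signals 7 rose, 3 fell and 3 did not pass, with a median log2 change of 0.16 (limma). Thus 76.9% passed, against 27.9% of all tested genes, again without matching for read depth. Of the 10 calls 8 held in each of the 14 alternatives. Spry1, Spry2 and Dusp5 had log2 changes of 1.27, 0.51 and 0.59 (limma, adjusted p = 1.85e-10, 1.24e-05 and 0.00184), and those that fell were Spred2 at -0.24, Etv1 at -0.79 and Il17rd at -0.42. These genes respond to many receptor tyrosine kinases, not to FGF receptors alone. Over all 5 lists 21 of 66 tested genes rose and 14 fell, where 14.3% of all tested genes rose and 13.5% fell.

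**Figure D4:**
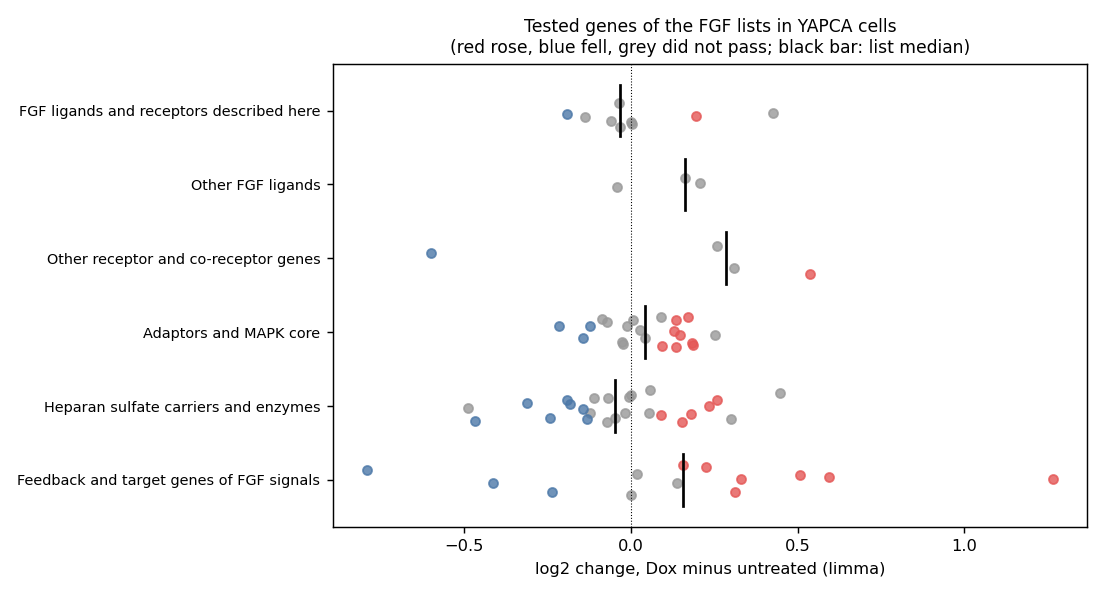
Log2 change (x axis, Dox minus untreated, limma) of every tested gene of the 9 FGF ligands and receptors and of 5 FGF pathway lists, with the list median as a black bar. The feedback genes spread most, from -0.79 (Etv1) to 1.27 (Spry1), while the receptor genes that passed, Fgfr1 and Fgfr2, lie at -0.19 and 0.19.

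The authors' deposited table of gene set scores per library holds 24 sets named for FGF or its receptors in each genotype. In YAPCA cells 3 of the 24 (12.5%) passed the authors' FDR of 0.05, against 12.8% of all 4320 sets, so the share was that of the background. All 3 rose, as did 296 of the 552 sets that passed, which makes rising sets 12.5% of the 24 and 6.85% of all sets. They were the Reactome sets for signalling by FGFR, with a difference of mean scores of 0.42 (FDR = 0.012), for signalling by FGFR2, 0.48 (FDR = 0.0205), and for FGFR2 alternative splicing, 0.59 (FDR = 0.0279), all from the authors' deposited table. The sets for signalling by FGFR1, FGFR3 and FGFR4 did not pass in the authors' deposited table (FDR = 0.474, 0.207 and 0.158). Which genes carried these scores was not examined here. For signalling by FGFR2 the scores were -0.215, -0.292 and -0.203 without Dox and 0.153, 0.263 and 0.319 with Dox in the authors' deposited table. In YAPCA cells the groups did not overlap for 14 of the 24 sets, and 20 had a higher mean score with Dox. In wild-type cells these numbers were 1 and 12. How many of all sets did not overlap was not counted. The set for signalling by FGFR2 was among the 14, while for the FGF pathway set of PID, at a difference of 0.01, the groups overlapped. They also overlapped for the Reactome sets for downstream signalling of activated FGFR1, FGFR2, FGFR3 and FGFR4. In the authors' deposited table these had FDRs of 0.866, 0.79, 0.737 and 0.579. For wild-type cells the authors' deposited table lists 0 of the 24 sets below that FDR, against 12.1% of all sets (9.65% rising), and the smallest FDR was 0.245. The genotypes were scored in separate tables, the sets share many genes, and the difference between genotypes was not tested.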

How the data were processed

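RNA-seq and ATAC-seq of cultured mouse periosteal cells were used. Per the submitters' processing notes, the build was mm10 and the tools were DESeq2, featureCounts, HISAT2, Picard, DiffBind, HOMER, MACS2, Bowtie2, bedtools and SAMtools, named with no role or order. Versions, settings, any shift for the transposase and any pooling before peak calling were not given in the sources used here.

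As deposited, the signal of YAPCA libraries holds normalised read counts: the authors divided the reads of each library by 1 factor, per the file headers and the values. Dividing by the smallest value gave whole reads for 100% of values (tolerance 0.01 read). The authors' log2 fold changes, concentrations and p-values come from DESeq2 and DiffBind, a linear fold (ratio) stands in the deposited wild-type RNA table, and the other joined text fields of the wild-type sites were read in the order of the authors' YAPCA sheet. Gene set scores are as deposited by the authors, by a tool that no header or label names. Columns left without a sample numbered 0.

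Values were tested with limma 3.58.1 in R 4.3.3 (log2(value + 1), intensity trend, two-sided, mean of at least 10, 13477 genes), a scale that understates changes of low genes. Counting reads limits the precision of low genes most. DESeq2 1.42.0 and edgeR 4.0.16 on the recovered reads, TMM scaling, pseudocounts of 0.5 and 5, no filter and a mean of at least 50, a replicate block and leaving out each library were the 14 alternatives. On the recovered reads edgeR called 1939 genes higher and 1885 lower with Dox, and limma 1931 and 1826. Replicates differed by more than sampling noise (chi-square over its degrees of freedom 1.79 to 3.35). The fit was tested on simulated data. Sites were assigned with Python 3.11.15 and RefSeq positions (GRCm38.p6). The motif search was planned for the sites and was made on promoters, since no genome was used here. Levels of different genes were not compared, since no transcript length was used.

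All 9 members are named, with up to 4 genes per list by adjusted p and genes that moved against most of their list. For 1 gene that this rule names, the result is not reported here. The members and lists were chosen with earlier results of these data known.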

Additional observations from a re-analysis of the deposited data

How the results depend on the processing

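Fgfr1 kept its fall in all 14 alternatives, and the counts of genes of the 5 FGF lists and of all genes that rose or fell stayed within 1.5 times under each of them. When each library was left out in turn, the number of FGF ligands and receptors that rose ran from 0 to 1 and the number that fell from 1 to 2, through Fgfr2 and Fgf10. Changes that did not pass turned sign: without 1 library Fgf2 ran from -0.115 to 0.02, Fgf7 from -0.057 to 0.002, Fgf18 from -0.042 to 0.052 and Fgfr3 from -0.083 to 0.056 on the log2 scale. Fgf18 was also at -0.002 with DESeq2, -0.005 with edgeR and -0.003 with TMM scaling, and Fgfr3 at -0.001 with TMM scaling. Of the 20 gained sites, 12 remained at an FDR below 0.01 and 4 at an absolute log2 fold above 1. Of the 2 lost sites, with FDRs of 0.0282 and 0.027 and log2 folds of -0.25 and -0.70, 0 remained under either. Stricter limits can only lower such counts. Within 50 kb of the start of the 7 genes with a start in the promoter table, 1 lost site was found, against 0 by nearest gene. Pairing of the samples by replicate number was weak and partial. The correlations of deviations were 0.0642, 0.109 and 0.205, and replicates 2 and 3, but not replicate 1, correlated best with their own number. With the replicate block 1 FGF ligand or receptor rose and 1 fell, as without it. Of the genes of the lists 23 rose and 17 fell, against 21 and 14. Of all genes 2258 rose and 2092 fell with the block, against 1931 and 1826. The motif alternative was not run, since no genome was used here. Depth limits Fgf1 and Fgfr3 most.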
